A study of Mus musculus with 30 samples.

Results

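The 10 genes described here, all of blood vessel and lymphatic vessel growth, were followed in the mouse ovary. They are the ligand genes Vegfa and Pgf, the receptor genes Flt1, Kdr and Flt4, the ligand genes Angpt1 and Angpt2, the receptor genes Tek and Tie1, and Lyve1, which encodes a hyaluronan receptor of lymphatic endothelium. They were taken by gene symbol, and all 10 were found among the 18022 genes of the deposited table. Pgf and Lyve1 were selected on measured values, chosen by their small p-values in single tests on these same data, so their differences between groups are given as a description, with no p-value. The other 8 genes were tested between groups.

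Whole ovaries of adult female CD1 mice, an outbred stock, were profiled by mRNA sequencing in 30 libraries, 3 in each of 10 groups. Dosing lasted 10 days. The control mice received vehicle alone. DEHP, di(2-ethylhexyl) phthalate, was tested at 20 and 200 ug/kg/day. DiNP, diisononyl phthalate, was tested at 20 and 100 ug/kg/day. Both times of collection, 0 months (the end of dosing) and 3 months after it, have a control group of their own. The labels name no transgene or deletion, and they do not say whether replicates are separate animals, so the p-values speak of the spread among libraries, which may be technical.

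The ovary is one of the few adult tissues in which vessels grow and regress with each cycle. Vegfa protein, made by granulosa and luteal cells, acts on endothelial cells through Kdr, while Flt1 also binds it, largely as a decoy, and is the receptor of Pgf. Flt4 answers to Vegfc and Vegfd and guides lymphatic growth. Angpt1, from cells around vessels, activates Tek and stabilises vessels, Angpt2 can oppose it and loosens them, and Tie1 is the partner receptor of Tek.

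No counts are given, so library sizes were estimated from the spacing of low values, at 24.7M to 42.3M with a median of 30.4M (M, mega). These are rough estimates, since only 12.9 to 30.4% of low values came out as whole reads. The largest size belonged to the library with the lowest such share, DEHP 200 replicate 3 at 0 months. CPM summed to 907668 to 1164842 per library, so the sizes may not be numbers of reads sequenced. Values are log2 CPM, read counts scaled by library size on a log2 scale, on which a difference of 1 is a doubling. Marker genes of ovarian cells were present: in control ovaries at 0 months the mean of 10 granulosa cell genes was 7.72 ± 0.32 (SD, n = 3), that of 10 luteal genes 9.49 ± 0.26, and that of 20 endothelial genes 4.72 ± 0.18. A pair of libraries stood apart from the rest, DEHP 200 replicate 3 at 0 months and DiNP 100 replicate 3 at 3 months, with median correlations to the other libraries of 0.931 and 0.944. The first of them had the lowest luteal gene mean of all libraries, 5.60.

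Per kilobase of the longest coding transcript, Vegfa was the highest of the 10 genes and Pgf the lowest. Vegfa averaged 5.41 log2 CPM per kilobase, followed by Kdr at 3.90, Angpt2 at 3.62, Tie1 at 3.54, Tek at 2.97, Flt4 at 2.75, Angpt1 at 2.66, Flt1 at 2.30, Lyve1 at 1.80 and Pgf at -0.42. The order was the same with each gene's median transcript length. The SDs over 30 libraries ran from 0.18 log2 (Flt4) to 0.51 (Lyve1). Kdr, Angpt2 and Tie1 each lay within the larger SD of their neighbour in this order, as did Tek, Flt4, Angpt1, Flt1 and Lyve1. Pgf ranged from 1.03 to 2.56 CPM and Lyve1 from 4.80 to 17.86 CPM, so that both rest on fewer reads than the other genes.

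**Figure D1:**
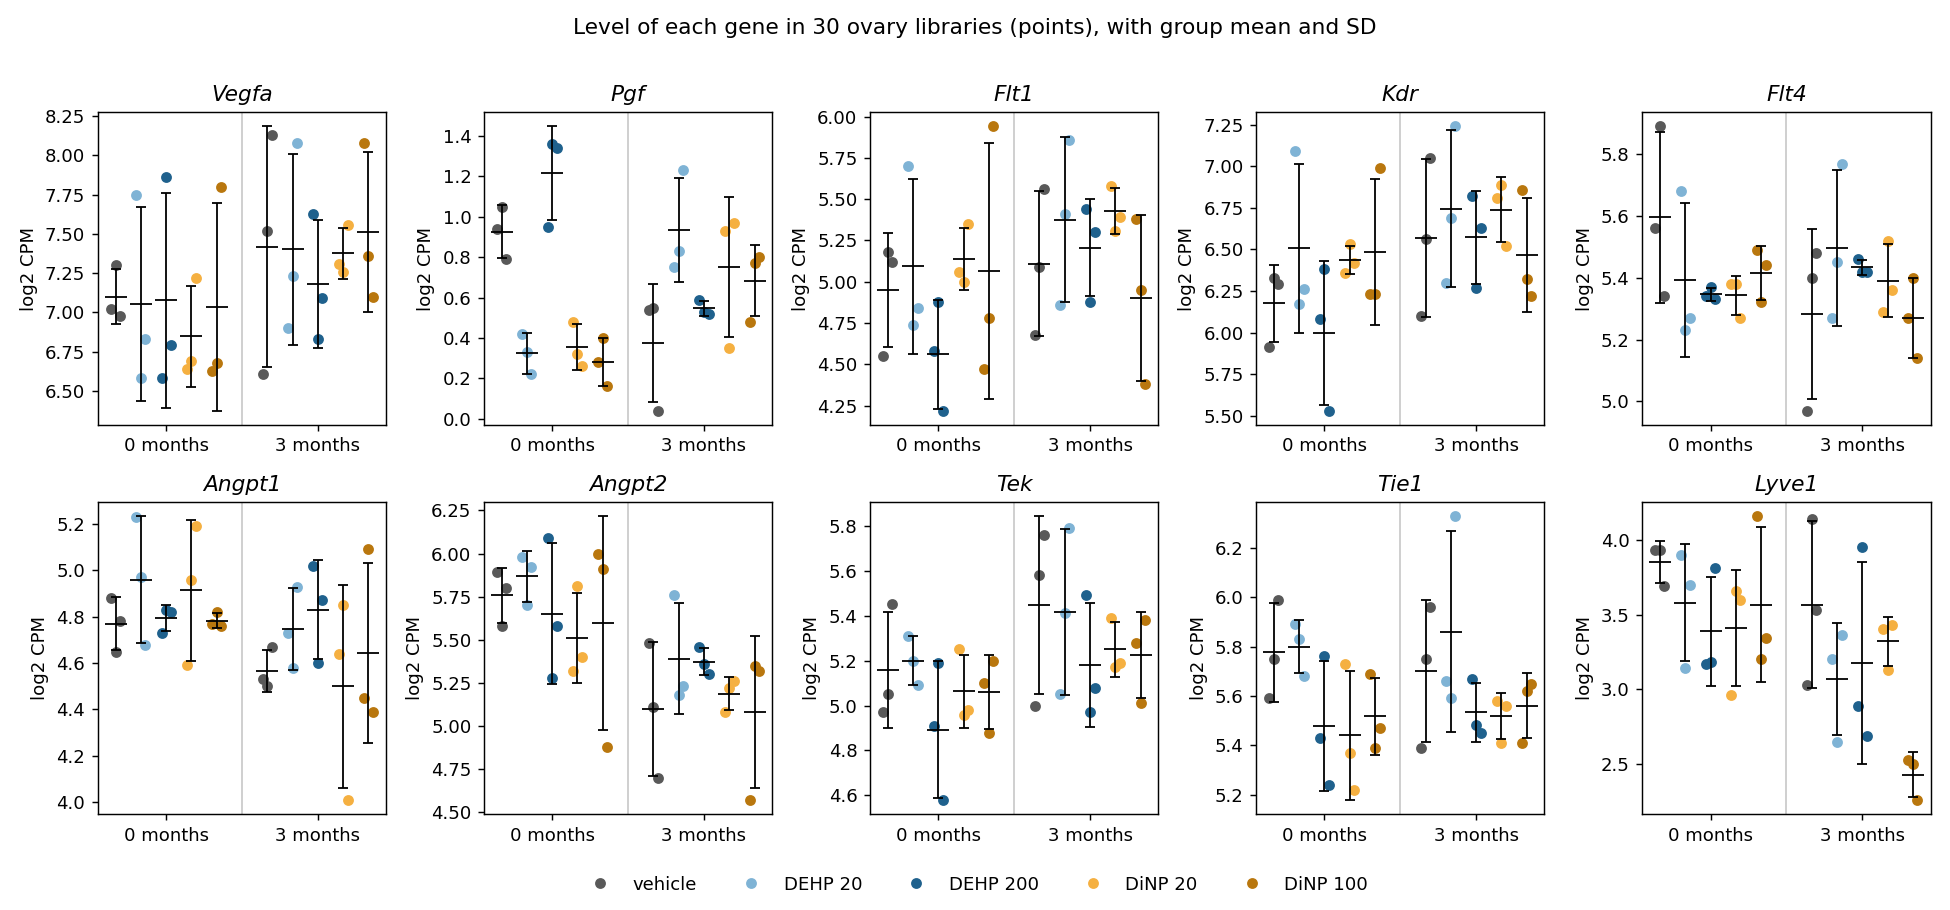
Each panel plots log2 CPM of 1 gene in 30 ovary libraries (points), by time after dosing and treatment, with group mean and SD (bars, n = 3). Pgf separates groups at 0 months, Lyve1 is lowest in the 3 DiNP 100 libraries at 3 months (2.26 to 2.53), and Angpt2 is lower at 3 months, while libraries of 1 group differ by more than 1 log2 unit in Vegfa.

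Treated ovaries were first compared with control ovaries of the same time point, which asks what the phthalates did to vascular genes during dosing and what was found 3 months later. None of the 8 tested genes passed in any of the 8 comparisons. In each, limma called 0 of 8 at an adjusted p under 0.05, against 0% of all 14740 genes tested, and 0 of 8 had an unadjusted p under 0.05. That unadjusted share over all genes was, at 0 months, 2.37% for DEHP 20, 5.02% for DEHP 200, 2.08% for DiNP 20 and 1.75% for DiNP 100. At 3 months it was 1.68%, 1.44%, 1.52% and 9.28% in the same order. The smallest adjusted p in limma was 0.655, for Tek in DiNP 100 ovaries at 3 months (-0.22 ± 0.20 log2, fold change ± SE). The 4 comparisons of a time point share 1 control group, so they are not independent of each other.

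The 3 libraries of a treated group lay wholly above or below the 3 control libraries for 7 of the 80 gene and comparison pairs, and 6 of the 7 were Pgf or Lyve1. At 0 months these were Pgf with DEHP 20 (background 9.40% of all genes in either direction), Pgf, Lyve1 and Kdr with DiNP 20 (9.73%) and Pgf with DiNP 100 (8.31%). There were none with DEHP 200 (7.85%). At 3 months they were Pgf with DEHP 20 (5.59%) and Lyve1 with DiNP 100 (5.82%), and there were none with DEHP 200 (5.27%) or DiNP 20 (6.07%). Pgf and Lyve1 were chosen by small p-values in these same data, so their separation is a description and is no evidence against the background. Among the tested genes Kdr with DiNP 20 at 0 months was the only pair without overlap. An exact permutation test of 3 against 3 cannot give a p below 0.10.

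**Figure D2:**
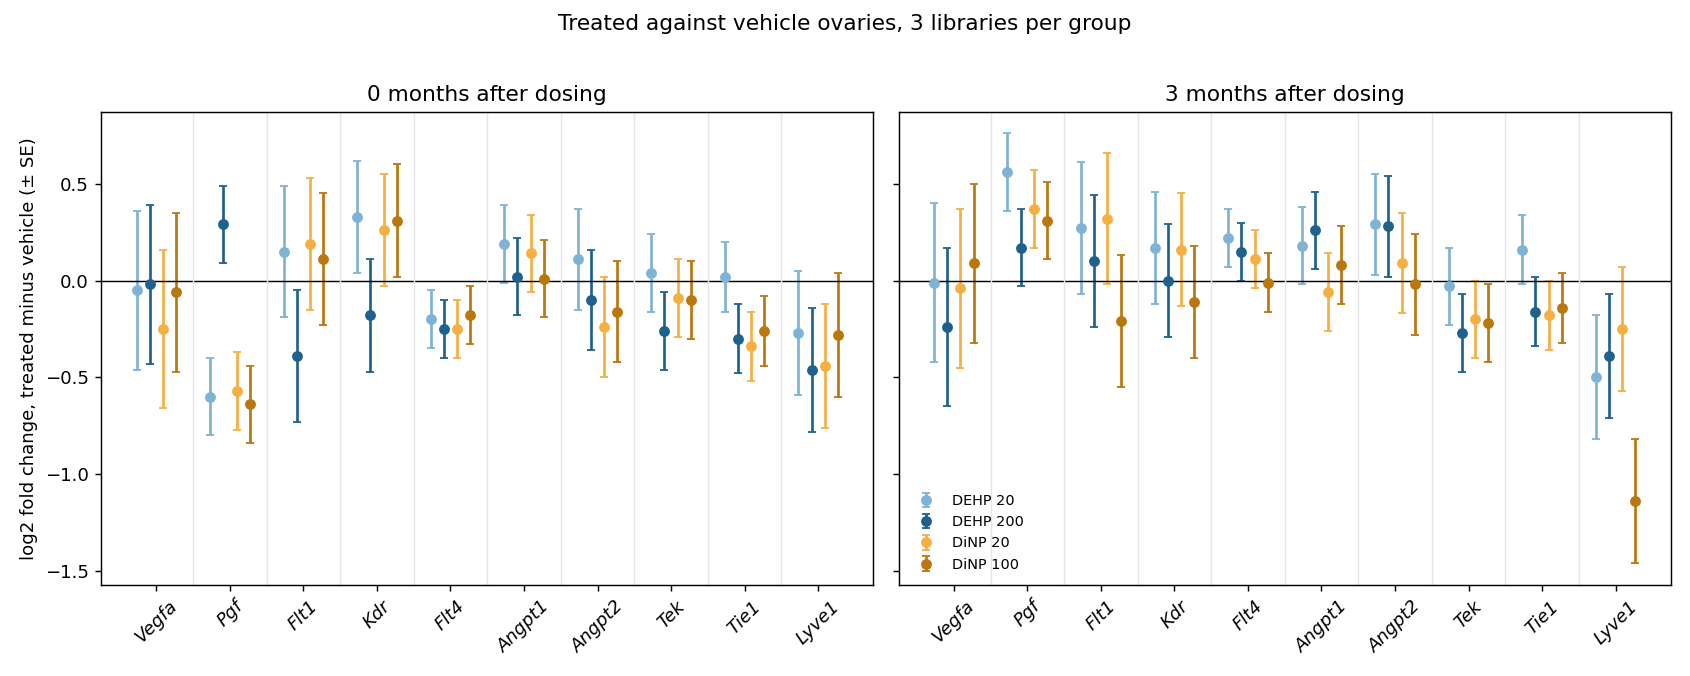
Log2 fold changes of treated against vehicle ovaries (points) with SE (bars) for the 10 genes at 0 and 3 months, 3 libraries per group. Pgf lies at -0.57 to -0.64 in 3 groups at 0 months and above 0 in all 4 at 3 months, and Lyve1 with DiNP 100 at 3 months lies at -1.14.

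Among the ligands, Vegfa (Entrez 22339, chromosome 17, 46016993 to 46032377, GRCm38.p6) is the main growth factor for blood vessels. At 0 months it stood at 7.02, 7.30 and 6.98 log2 CPM in control replicates 1 to 3, and at 6.58, 7.86 and 6.79 with DEHP 200. At 3 months the control libraries were at 6.61, 7.52 and 8.13 and the DiNP 100 libraries at 8.08, 7.36 and 7.10. Single libraries within a group thus differed more than the group means, and treated and control values overlapped in all 8 comparisons. The 8 fold changes of Vegfa ran from -0.25 ± 0.41 (DiNP 20, 0 months) to 0.09 ± 0.41 (DiNP 100, 3 months). The 95% intervals reached as far as -1.10 (DiNP 20, 0 months) and 0.94 (DiNP 100, 3 months), so changes up to that size were not excluded in those comparisons. Its residual SD between libraries of the same group, 0.53, was larger than that of 87.3% of genes, where the median gene had 0.25.

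Pgf (Entrez 18654, chromosome 12, 85166637 to 85177785), placental growth factor, binds Flt1 but not Kdr. At 0 months it stood at 0.94, 1.05 and 0.79 log2 CPM in control libraries and at 0.95, 1.36 and 1.34 with DEHP 200. The libraries of the other 3 groups were at 0.42, 0.33 and 0.22 (DEHP 20), 0.48, 0.32 and 0.26 (DiNP 20) and 0.28, 0.40 and 0.16 (DiNP 100). All 9 of these libraries lay below all 6 control and DEHP 200 libraries. Against control the fold change was -0.60 ± 0.20 with DEHP 20, -0.57 ± 0.20 with DiNP 20 and -0.64 ± 0.20 with DiNP 100, but 0.29 ± 0.20 with DEHP 200. In CPM these groups averaged 1.25 ± 0.09, 1.28 ± 0.10 and 1.22 ± 0.10 (SD, n = 3), against 1.91 ± 0.18 in controls and 2.34 ± 0.35 with DEHP 200. With 1 CPM added before the logarithm the 3 lower values shrank to -0.37, -0.35 and -0.39.

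At 3 months Pgf did not keep that order. Control libraries were at 0.54, 0.55 and 0.04 log2 CPM, DEHP 20 libraries at 0.75, 0.83 and 1.23, and DEHP 200 libraries at 0.59, 0.53 and 0.52. DiNP 20 libraries were at 0.93, 0.35 and 0.97 and DiNP 100 libraries at 0.48, 0.77 and 0.80. DEHP 20 was the group whose libraries were all above the control libraries, and the other 3 groups overlapped with them. Fold changes against control were 0.56, 0.17, 0.37 and 0.31 (each ± 0.20) for DEHP 20, DEHP 200, DiNP 20 and DiNP 100. The control groups themselves differed: Pgf was at 0.38 ± 0.29 at 3 months and 0.93 ± 0.13 at 0 months (SD, n = 3). Each control group enters all 4 comparisons of its time point, so all 8 values rest on these 6 libraries.

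Flt1 (Entrez 14254, chromosome 5, 147561604 to 147726438) and Kdr (Entrez 16542, chromosome 5, 75932827 to 75979072) encode the receptors of Vegfa protein on blood endothelium. Control libraries at 0 months had Kdr at 5.91, 6.33 and 6.29 log2 CPM, and DiNP 20 libraries had 6.36, 6.53 and 6.42. The lowest DiNP 20 library was just above the highest control library, and the fold change was 0.26 ± 0.29 (limma adjusted p = 1). Over the 8 comparisons Kdr ran from -0.18 ± 0.29 (DEHP 200, 0 months) to 0.33 ± 0.29 (DEHP 20, 0 months). Flt1 ran from -0.39 ± 0.34 (DEHP 200, 0 months) to 0.32 ± 0.34 (DiNP 20, 3 months). The lowest value of both genes was in DEHP 200 replicate 3 at 0 months (Kdr 5.53, Flt1 4.22), which stood apart. Without it the DEHP 200 values at 0 months were 0.05 for Kdr and -0.22 for Flt1.

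Flt4 (Entrez 14257, chromosome 11, 49609679 to 49652739), the receptor of lymphatic growth, varied least of the 10 genes, with a residual SD of 0.18. At 0 months control libraries had 5.56, 5.89 and 5.34 log2 CPM. The 12 treated libraries ran from 5.23 to 5.68, and each treated group overlapped with control. Fold changes were -0.20, -0.25, -0.25 and -0.18 (each ± 0.15) for DEHP 20, DEHP 200, DiNP 20 and DiNP 100. At 3 months, with control libraries at 4.97, 5.40 and 5.48, they were 0.22, 0.15, 0.11 and -0.01. In the 8 comparisons of treated with control ovaries the smallest unadjusted p of Flt4 in limma was 0.0953 (DiNP 20, 0 months; adjusted p = 1).

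Of the angiopoietins, Angpt1 (Entrez 11600, chromosome 15, 42424667 to 42676977) stood at 4.88, 4.65 and 4.78 log2 CPM in control ovaries at 0 months and at 4.53, 4.50 and 4.67 at 3 months. Its 8 fold changes ran from -0.06 ± 0.20 (DiNP 20, 3 months) to 0.26 ± 0.20 (DEHP 200, 3 months), and every treated group overlapped with control. Angpt2 (Entrez 11601, chromosome 8, 18690263 to 18741562) ran from -0.24 ± 0.26 (DiNP 20, 0 months) to 0.29 ± 0.26 (DEHP 20, 3 months), again with overlap in all 8. The Angpt2 value with DiNP 100 at 0 months rested on 1 library: replicates 1 to 3 stood at 63.98, 59.99 and 29.38 CPM, and the fold change was -0.16 with all 3 but 0.20 without replicate 3.

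The receptor genes Tek (Entrez 21687, chromosome 4, 94739086 to 94874976) and Tie1 (Entrez 21846, chromosome 4, 118471191 to 118489849) are expressed in nearly all endothelial cells. Tie1 stood at 5.59, 5.75 and 5.99 log2 CPM in control libraries at 0 months and at 5.73, 5.37 and 5.22 with DiNP 20. The groups overlapped, and the fold change of -0.34 ± 0.18 had the smallest unadjusted p of any tested gene in the 8 comparisons (0.0697, limma adjusted p = 1). With DEHP 200 and DiNP 100 at 0 months Tie1 was at -0.30 (-0.18 without the library that stood apart) and -0.26, and with DEHP 20 at 0.02. Tek ran from -0.27 ± 0.20 (DEHP 200, 3 months) to 0.04 ± 0.20 (DEHP 20, 0 months).

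Lyve1 (Entrez 114332, chromosome 7, 110850607 to 110862953) marks lymphatic endothelium and is also made by some tissue macrophages. At 3 months control libraries had 3.03, 4.14 and 3.53 log2 CPM, and DiNP 100 libraries had 2.53, 2.50 and 2.26. These were the 3 lowest values of Lyve1 among all 30 libraries. Their mean was 5.41 ± 0.53 CPM (SD, n = 3) against 12.5 ± 4.8 in controls. On the log2 scale the fold change was -1.14 ± 0.32. It was -1.05 without the DiNP 100 library that stood apart, and between -0.85 (without control replicate 2) and -1.41 (without control replicate 1) when a library was left out.

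The other 3 groups at 3 months overlapped with control in Lyve1. DEHP 20 libraries had 3.20, 2.65 and 3.36, DEHP 200 libraries 2.89, 3.95 and 2.69, and DiNP 20 libraries 3.40, 3.13 and 3.43. Their fold changes were -0.50, -0.39 and -0.25 (each ± 0.32). At 0 months control libraries had 3.93, 3.93 and 3.69, and fold changes were -0.27, -0.46, -0.44 and -0.28 for DEHP 20, DEHP 200, DiNP 20 and DiNP 100. Without the DEHP 200 library that stood apart its value was -0.67. All 8 fold changes of Lyve1 were thus below 0, but the 4 of each time point share the same controls. DiNP 20 libraries at 0 months, at 2.96, 3.66 and 3.60, lay below all control libraries, the highest of them narrowly.

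Other markers of the cells that make Lyve1 were set beside it. In DiNP 100 ovaries at 3 months 7 of 9 lymphatic endothelial genes were negative against control and 0 passed in limma, with a median of -0.29 log2. Their summed level was 487 to 700 CPM, against 493 to 689 CPM in controls. All 11 tested macrophage genes were positive, with a median of 0.39 and 0 passing, at a summed 252 to 374 CPM against 226 to 269 CPM. The part of either cell type in the Lyve1 difference was not tested, and fewer cells of a type and less RNA per cell cannot be told apart in whole ovaries.

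DEHP and DiNP are both diesters of phthalic acid that differ in their alcohol chains, ethylhexyl in DEHP and isononyl in DiNP, and they share 1 dose, 20 ug/kg/day. At that dose 0 of 8 genes passed at either time in limma (background 0%), and 0 of 8 had an unadjusted p under 0.05, against 2.05% of all genes at 0 months and 2.90% at 3 months. Tie1 differed most for its spread. It was 0.36 ± 0.18 log2 higher with DEHP than with DiNP at 0 months (95% interval -0.01 to 0.73) and 0.34 ± 0.18 higher at 3 months (-0.03 to 0.71, limma adjusted p = 1 at both times). At 3 months DEHP 20 libraries had Tie1 at 5.66, 5.59 and 6.33 and DiNP 20 libraries at 5.58, 5.41 and 5.56, without overlap (9.22% of all genes do not overlap in either direction), but the difference was 0.11 without DEHP 20 replicate 3. At 0 months all 10 genes overlapped (9.57% of all genes do not). The interval for Vegfa was wide, -0.64 to 1.05 at 0 months and -0.82 to 0.87 at 3 months, and that for Flt4 was -0.25 to 0.35 and -0.19 to 0.41. Pgf was at -0.03 ± 0.20 and 0.18 ± 0.20, and Lyve1 at 0.18 ± 0.32 and -0.25 ± 0.32.

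Between doses of 1 compound 0 of 8 genes passed in each of 4 comparisons in limma (background 0% in each), and 0 of 8 had an unadjusted p under 0.05. That unadjusted share over all genes was 3.95% for DEHP and 0.583% for DiNP at 0 months, and 0.957% and 12.2% at 3 months. With DEHP 200 against DEHP 20 at 0 months Kdr was at -0.51 ± 0.29, Flt1 at -0.53 ± 0.34, Tie1 at -0.32 ± 0.18 and Tek at -0.31 ± 0.20, each with an adjusted p of 0.945, and all groups overlapped. Without DEHP 200 replicate 3, which stood apart, these were -0.28, -0.36, -0.20 and -0.15. Pgf went the other way, at 0.89 ± 0.20, and its groups did not overlap (7.14% of all genes in either direction). At 3 months Pgf was at -0.39 ± 0.20 in the same comparison, again without overlap (5.33%). Lyve1 was at -0.89 ± 0.32 with DiNP 100 against DiNP 20 at 3 months, without overlap (8.24%), or -0.81 without the library that stood apart, and at 0.16 ± 0.32 at 0 months, where no gene of the 10 separated the doses (3.92%).

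Whether a treatment effect differed between the time points was tested as an interaction. In limma 0 of 8 genes passed for each of the 4 treatments (background 0%), and 0 of 8 had an unadjusted p under 0.05, against 1.96%, 2.54%, 1.49% and 2.33% of all genes for DEHP 20, DEHP 200, DiNP 20 and DiNP 100. Flt4 with DEHP 20 came nearest, at 0.41 ± 0.21 (unadjusted p = 0.0558, adjusted p = 1). The same difference was 1.16 ± 0.29 for Pgf with DEHP 20, 0.95 ± 0.29 with DiNP 20, 0.95 ± 0.29 with DiNP 100 and -0.12 ± 0.29 with DEHP 200. These 4 values share both control groups.

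Ovaries at 3 months were next compared with ovaries at 0 months, in each treatment and as the mean of the 5 within-treatment differences. Angpt2 fell, and it was the 1 tested gene of 8 that passed in limma, where 20.3% of all genes passed, 10.6% as higher and 9.63% as lower. At 0 months Angpt2 ran from 4.88 to 6.09 log2 CPM over 15 libraries with a median of 5.80, and at 3 months from 4.57 to 5.76 with a median of 5.26. All 15 libraries at 3 months lay below the median at 0 months. The difference was -0.45 ± 0.12 (95% interval -0.69 to -0.21, limma adjusted p = 0.011), and it was below 0 in 5 of 5 treatments. Over 41 alternatives the adjusted p in limma was 0.00158 to 0.0232. The lowest came from array weights, whose estimate stopped before convergence. The fit of the compared groups alone could not differ, since this comparison uses all 10 groups. Without the pair of libraries that stood apart the difference was -0.48 (limma adjusted p = 0.0155). In control ovaries Angpt2 stood at 5.89, 5.58 and 5.80 at 0 months and at 5.48, 5.11 and 4.70 at 3 months, without overlap.

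In control ovaries alone, where limma called 1 gene in all (0.00678%), 0 of 8 passed. Angpt2 was at -0.66 ± 0.26 (adjusted p = 0.603) and Flt4 at -0.31 ± 0.15 (adjusted p = 0.623), the genes with an unadjusted p under 0.05 (7.98% of all genes). Angpt2 and Pgf were those without overlap between the times (14.7% of all genes in either direction).

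**Figure D3:**
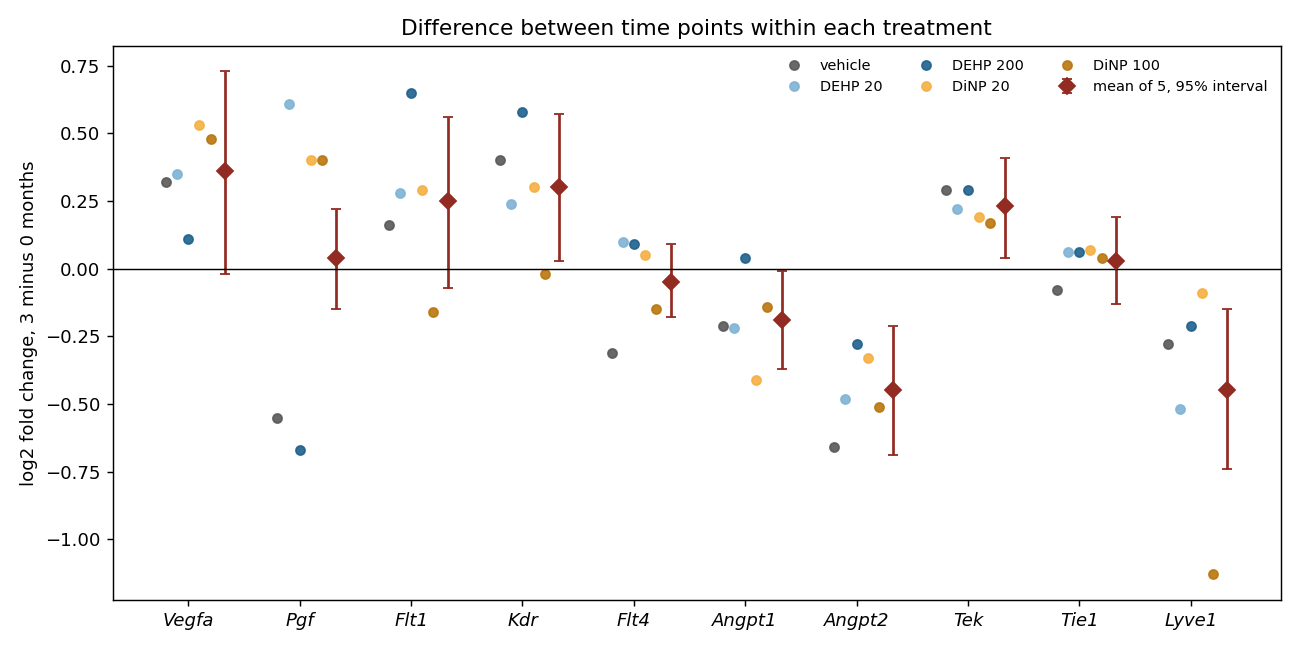
Log2 fold change at 3 against 0 months for the 10 genes, within each of 5 treatments (points) and as their mean with its 95% interval (diamonds, bars). Angpt2 lies below 0 in 5 of 5 treatments, with a mean of -0.45, and Tek above 0 in 5 of 5, with a mean of 0.23.

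Kdr, Angpt1 and Tek also had an unadjusted p under 0.05 over time, as had 35.1% of all genes, and did not pass. Tek was at 0.23 ± 0.09 (adjusted p = 0.0716 in limma), above 0 in 5 of 5 treatments. Kdr was at 0.30 ± 0.13 (adjusted p = 0.0998) and Angpt1 at -0.19 ± 0.09 (adjusted p = 0.132), each with that sign in 4 of 5 treatments. Vegfa was at 0.36 ± 0.18 and positive in 5 of 5 treatments (adjusted p = 0.168), with a median of 6.83 at 0 months and 7.31 at 3 months. Flt1 was at 0.25 ± 0.15, Tie1 at 0.03 ± 0.08 (-0.00 with quantile normalization) and Flt4 at -0.05 ± 0.07. Lyve1 was at -0.45 ± 0.14, below 0 in 5 of 5 treatments, from -0.09 with DiNP 20 to -1.13 with DiNP 100. Pgf was at 0.04 ± 0.09, made of -0.55 in controls and -0.67 with DEHP 200 against 0.61, 0.40 and 0.40 with DEHP 20, DiNP 20 and DiNP 100.

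The log2 ratio of Angpt2 to Angpt1 within a library, in which the scaling of libraries cancels, gives the balance of the ligands of Tek. In control ovaries it was 1.01, 0.93 and 1.01 at 0 months and 0.95, 0.61 and 0.03 at 3 months. The control means were 0.98 ± 0.05 and 0.53 ± 0.46 (SD, n = 3). Group means at 0 months ran from 0.60 ± 0.34 (DiNP 20) to 0.98, and at 3 months from 0.44 ± 0.43 (DiNP 100) to 0.68 ± 0.49 (DiNP 20). The SD within a group was 0.29 to 0.61 in the 4 treated groups at 0 months and 0.18 to 0.49 in the 5 groups at 3 months. The mean difference over the 5 treatments was -0.26, with no test.

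The rest of the pathway moved in both directions over time. Of 21 other genes of VEGF, angiopoietin and Notch signalling, 5 rose and 2 fell in limma, where 10.6% of all genes rose and 9.63% fell, with a median of 0.05 log2 against 0.00 over all genes. Robo4, a guidance receptor of endothelium, rose by 0.45 ± 0.08 (adjusted p = 0.00146). Nrp1, a co-receptor of Kdr, rose by 0.30 ± 0.06 (adjusted p = 0.0029). Nrp2, the co-receptor linked to Flt4, rose by 0.29, and Dll4 and Notch1, a ligand and receptor of tip cell selection, rose by 0.38 and 0.32. Hey2, a Notch target of arteries, fell by 0.52 (-0.52 ± 0.13, adjusted p = 0.00769), and Vegfd, a ligand of Flt4, fell by 0.36, while the related ligand genes Vegfc and Vegfb, picked after their values were seen, were at 0.05 ± 0.10 and 0.02 ± 0.06.

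In a list of 11 genes drawn up as opposing vessel growth 0 rose and 2 fell, Vash2 (-0.49 ± 0.12) and Sema3a (-0.52 ± 0.15), with a median of -0.11. Vash2, unlike its relative Vash1, is not an inhibitor of vessel growth, so its fall is not that of an inhibitor. Of 16 genes of the hypoxia response 1 rose (Ndrg1, 0.50 ± 0.16) and 1 fell (Car9, -0.60 ± 0.13), with a median of 0.02. This list mixes regulators of the response, such as Hif1a, Epas1, Arnt and Vhl, with genes that respond to low oxygen as Vegfa does. Over all genes 10.6% rose and 9.63% fell. Of all the listed genes of these 3 groups 0 passed in any comparison of treated with control ovaries.

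Markers of ovarian cell types were read against the same shares of all genes over these 3 months, 10.6% higher and 9.63% lower. Of 20 endothelial genes 1 rose, Eng (0.45 ± 0.11), a share below that of all genes, and the median was 0.04. Of 9 lymphatic endothelial genes 9 were negative and 3 fell, Prox1 (-0.51 ± 0.12), which encodes the transcription factor of lymphatic identity, Foxc2 (-0.43 ± 0.14) and Reln (-0.40 ± 0.13), with a median of -0.30. Among macrophage genes 9 of 11 rose, with a median of 0.66. Of 12 genes of pericytes and smooth muscle 4 fell, Acta2, Tagln, Cnn1 and Mcam, with a median of -0.23. Granulosa cell genes fell in 9 of 10 cases, with a median of -0.54, and 3 of 10 luteal genes rose, Hsd3b1 (0.67), Sfrp4 (2.05) and Akr1c18 (3.43), with a median of 0.79. The lowest library mean of the granulosa list was 7.15 log2 CPM at 0 months and 6.41 at 3 months, where the highest was 7.42, and its part in the lower Angpt2 was not tested.

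The 10 genes also varied together between libraries of the same group. After group means were subtracted, 105 relations were computed over 30 libraries, 45 between pairs of the genes and 60 with the means of 6 marker lists, and 23 passed a permutation test at an adjusted p under 0.05. All values of a library share its depth and its mix of cells. The tightest trio was Vegfa with its receptors Flt1 and Kdr. Flt1 and Kdr had r = 0.91 and rho = 0.89 (permutation p = 1e-05, the smallest that 100000 resamples can give, and 2e-05, adjusted p = 0.00035 and 0.000525), Vegfa and Flt1 r = 0.87 and rho = 0.86 (permutation p = 1e-05 and 1e-05, adjusted p = 0.00035 and 0.000525), and Vegfa and Kdr r = 0.86 and rho = 0.81 (permutation p = 0.00016 and 0.0002, adjusted p = 0.00223 and 0.00289). Without the 2 libraries farthest from the median r was 0.90, 0.86 and 0.84. Within 0 months r was 0.92, 0.85 and 0.82, and within 3 months 0.92, 0.91 and 0.91. In the third replicates of DiNP 100 at 0 months, for example, Vegfa was 7.80, Flt1 5.94 and Kdr 6.99, each the highest of its group, whose other libraries had Vegfa at 6.63 and 6.68.

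Because these 3 genes moved together, the 240 bases upstream of a RefSeq start of each (GRCm38.p6, from 250 to 11 bases upstream, minus strand of the chromosome, read 5′ to 3′) are shown. Vegfa lies at chr17:46032388-46032627, Flt1 at chr5:147726022-147726261 and Kdr at chr5:75978466-75978705, and none of the windows overlaps an exon annotated by GENCODE. The spans of Flt1 and Kdr given above reach farther upstream than these starts, so their windows lie within the genes as annotated by RefSeq. Capitals mark the GC box, GGGCGG on either strand, the element bound by Sp1.
Vegfa: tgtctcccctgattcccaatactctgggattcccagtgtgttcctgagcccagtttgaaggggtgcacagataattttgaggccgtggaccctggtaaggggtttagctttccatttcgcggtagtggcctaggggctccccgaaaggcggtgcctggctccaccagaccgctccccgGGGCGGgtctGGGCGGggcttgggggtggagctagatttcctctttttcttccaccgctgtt
Flt1: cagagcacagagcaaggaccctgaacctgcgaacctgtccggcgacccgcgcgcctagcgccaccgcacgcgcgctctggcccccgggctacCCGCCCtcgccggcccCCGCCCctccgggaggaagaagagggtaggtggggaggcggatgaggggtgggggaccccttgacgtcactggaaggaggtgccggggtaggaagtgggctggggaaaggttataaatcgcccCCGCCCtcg
Kdr: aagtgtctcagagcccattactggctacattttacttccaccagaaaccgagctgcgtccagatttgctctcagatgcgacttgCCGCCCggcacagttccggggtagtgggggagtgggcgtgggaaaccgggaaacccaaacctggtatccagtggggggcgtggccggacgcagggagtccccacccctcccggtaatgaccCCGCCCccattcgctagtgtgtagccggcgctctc
The GC box was found 2 times in the Vegfa window, 3 times in that of Flt1 and 2 times in that of Kdr, and in 31.3% of 32851 windows of the same length it was found at least once. The share of G and C was 59.2% in the Vegfa window, 70.8% in that of Flt1 and 62.1% in that of Kdr. The median of all windows was 52.1%, so the background is not of like composition. The core of hypoxia response elements, ACGTG or GCGTG on either strand, was found 1 time for Flt1 and 2 times for Kdr, and in 37.4% of all windows. It was not found in this window of Vegfa, which says only that these letters are absent from these bases. The window of a second RefSeq start of Vegfa (at 46025163), which overlaps an exon of Vegfa, held the core 2 times and the GC box 1 time. A TATA box, TATAAA on either strand, was found in the Flt1 window alone of the 3 (12.1% of all windows). The Tek window (chr4:94739039-94739278) overlaps no exon annotated by GENCODE, but part of it lies within the RefSeq span of Tek given above. Tek had 0 GC boxes in its window, as had Tie1. The Flt4 window held 3, and the windows of the Pgf starts at 85177313 and 85175982 held 2 and 0. The windows of Tie1, Flt4 and Pgf each overlap an exon of their own gene. Such matches are a description of the sequence, with no measurement of binding, and their relation to the shared variation was not tested.

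**Figure D4:**
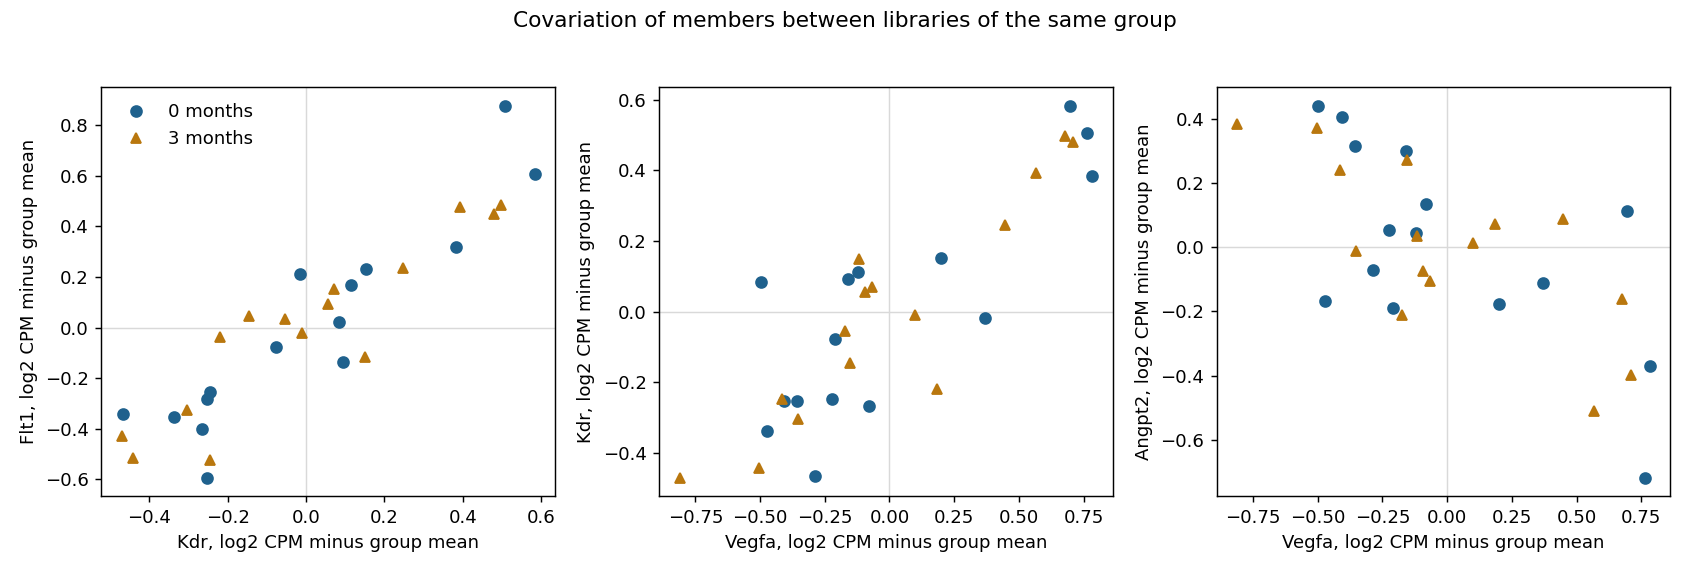
Each point is 1 of 30 libraries, as log2 CPM minus its group mean, for Flt1 against Kdr (left), Kdr against Vegfa (middle) and Angpt2 against Vegfa (right), circles for 0 and triangles for 3 months. The first 2 panels rise together (r = 0.91 and 0.86), and the third falls (r = -0.69).

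Angpt2 went against Vegfa and Flt1. With Vegfa it had r = -0.69 and rho = -0.60 (permutation p = 0.00346 and 0.00987, adjusted p = 0.0259 and 0.0487), and with Flt1 r = -0.69 and rho = -0.60 (permutation p = 0.00529 and 0.00967, adjusted p = 0.0289 and 0.0487). Without the 2 farthest libraries r was -0.60 and -0.67, and it was negative within each time point (-0.65 and -0.61 at 0 months, -0.74 and -0.80 at 3 months). With Kdr the relation did not pass, at r = -0.57 and rho = -0.45 (permutation p = 0.016 and 0.0503, adjusted p = 0.0647 and 0.155), and r was -0.38 at 0 months and -0.80 at 3 months. DEHP 20 ovaries at 3 months show the range, with Vegfa at 6.90, 7.23 and 8.08 and Angpt2 at 5.76, 5.18 and 5.23. Angpt2 followed the granulosa cell list, with r = 0.58 and rho = 0.66 (permutation p = 0.00174 and 0.00059, adjusted p = 0.0141 and 0.00619).

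Tek and Tie1, receptors that act as a pair, had r = 0.81 and rho = 0.79 (permutation p = 0.00016 and 0.00022, adjusted p = 0.00223 and 0.00289), and 0.76 without the 2 farthest libraries. Tek followed the mean of the 20 endothelial genes most closely of all 105 relations, with r = 0.95 and rho = 0.94 (permutation p = 1e-05 and 1e-05, adjusted p = 0.00035 and 0.000525), and Tie1 had r = 0.82 and rho = 0.81 with it (permutation p = 7e-05 and 9e-05, adjusted p = 0.00147 and 0.00189). Kdr had r = 0.72 with the endothelial list and r = 0.77 with the luteal list. Flt1 had 0.58 and 0.63 with these lists, and Vegfa 0.66 and 0.60. The luteal list was not particular to these genes, since Tek (r = 0.69) and Flt4 (r = 0.35) passed with it too. Flt4 had its highest list value with pericyte and smooth muscle genes (r = 0.65, rho = 0.70, permutation p = 0.00048 and 0.00045, adjusted p = 0.00525 and 0.00525). With the lymphatic endothelial list Flt4 had r = -0.01.

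Pgf, Angpt1 and Lyve1 stood outside this pattern. None of their relations with another of the 10 genes or with a list passed. Pgf had r = -0.08 with its receptor Flt1, Angpt1 r = 0.04 with its receptor Tek, and Lyve1 r = 0.25 with the lymphatic endothelial list (permutation p = 0.695, 0.82 and 0.311, adjusted p = 0.936, 0.961 and 0.553). Without the libraries that stood apart the 23 relations passed again, among 28 in all.

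**Figure D5:**
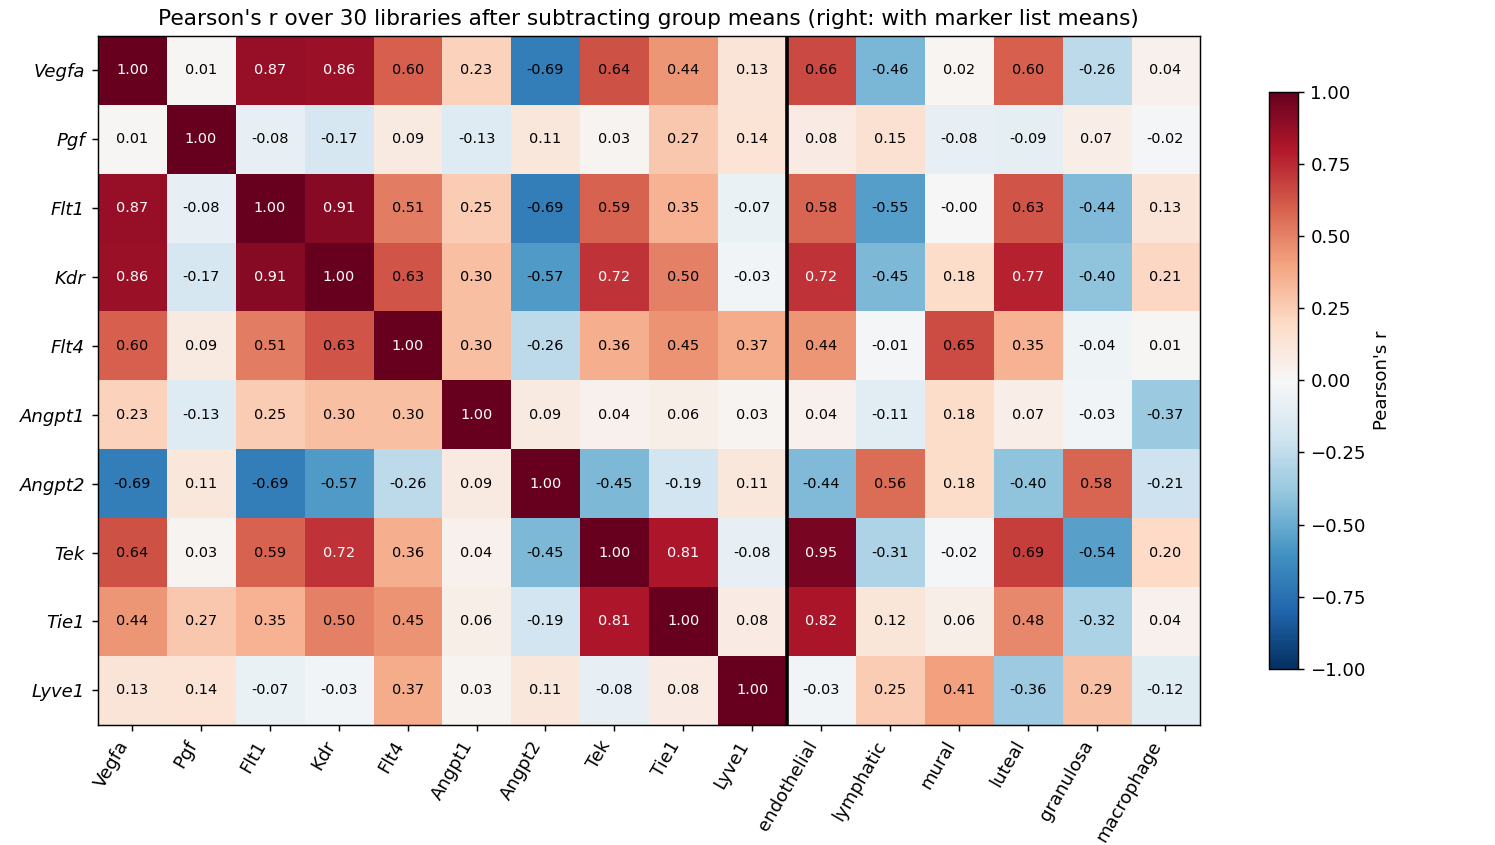
Pearson's r over 30 libraries after group means were subtracted, between the 10 genes (left of the line) and with the means of 6 marker lists (right), from -1 (blue) to 1 (red). The block of Vegfa, Flt1 and Kdr has r of 0.86 to 0.91, and Tek and the endothelial list 0.95.

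The genes whose levels were most like each of the 10 over 30 libraries, with group means kept, were taken by the highest Pearson r among the genes tested. Kdr was most like Pdlim5 (r = 0.95), Tacc1 (0.92) and Flt1 (0.92), and Flt1 like Cpeb4, Edem3 and Kdr (0.92 each). Vegfa was most like Rabgef1 (0.89), Crat (0.84) and Bnip3 (0.84). Angpt2 was most like Trib2, Nnat and Amigo2 (0.85 each). Tek was most like the endothelial adhesion gene Pecam1 (0.84), Adgrl4 (0.82) and Mocos (0.82), and Tie1 like Pecam1 (0.76), Tek (0.75) and Mmrn2 (0.74). Lower values were the highest for Flt4 (Igfbp3, 0.71), Lyve1 (Nfya and Gm36313, 0.70 each), Angpt1 (Gucy1a1, 0.66) and Pgf (Clk2, 0.65). Libraries share depth and treatment, so these values are a description across libraries.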

How the data were processed

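Messenger RNA of whole, flash-frozen ovaries was sequenced as single reads from stranded TruSeq libraries on an Illumina HiSeq, per the labels' protocols. FastQC 0.11.8, Salmon 0.11.3, edgeR (no version), R 3.5.2 and the build GRCm38.p6 are named in the submitters' processing notes, with no role or order. The authors deposited 1 table of log2 CPM for 18022 genes in 30 libraries. Whole reads could not be recovered from it, since only 12.9 to 30.4% of low values came out whole (within 0.05 of a read), so no count test was run, and the depth of each library was approximated from the spacing of low values.

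Groups were taken from sample titles. The 14740 genes (81.8%) with a mean log2 CPM above 0, all 10 genes described here among them, entered a linear model in limma 3.58.1 under R 4.3.3 (statmod 1.5.0 loaded). The model held 10 group means for the 30 libraries, and the prior variance followed mean expression. Residual and prior degrees of freedom were 20 and 2.85. Tests were two-sided, with Benjamini-Hochberg adjustment over all genes within each of 20 comparisons and a threshold of 0.05. The same steps were tested on simulated data. Correlations used within-group permutations (100000). The genes and the gene lists were chosen with earlier results of these data known, so they give no independent support to each other. All 10 genes were named, and of each other list the genes that passed, the 3 with the smallest p (all where a count was 5 or fewer), or else the gene with the smallest p against control. The 3 genes most correlated with each of the 10 were also ranked. Gene spans, start sites and promoter windows are from RefSeq on GRCm38.p6 (7 of the 10 genes matched a window), and strands, exons and transcript lengths from GENCODE.

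The settings varied were scaling (median centring or quantile normalization), no filter, a mean log2 CPM above 2, 1 CPM added, no variance trend, robust fits, array weights, the replicate number as a block, fits of the compared groups alone, adjusted p under 0.10 and leaving out each library. Leaving out both libraries that stood apart was added after the data were seen.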

Additional observations from a re-analysis of the deposited data

How the results depend on the processing

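Of 395 alternative counts of genes passing, 384 were the same as the reported count or within 1.5 times of it. Of the 19 comparisons with 0 genes passing, 17 stayed at 0 in all alternatives at the 0.05 threshold. Array weights gave 1 gene for DEHP 200 against control at 3 months (Angpt1), 2 for control ovaries over time (Angpt2 and Tek) and 4 for all ovaries over time (Vegfa, Kdr, Angpt2 and Tek). This fit gave control replicate 2 at 3 months a weight of 35.13, against 0.64 and 0.59 for the other control libraries of that time, and DiNP 100 replicate 1 at 3 months a weight of 0.00, and the estimate of weights stopped before convergence. The control group at 3 months in this fit thus rests largely on 1 library. For all ovaries over time an adjusted p under 0.10 gave 3 (Kdr, Angpt2 and Tek), and leaving out 1 library gave 1 to 3, all including Angpt2. The count was 3 without control replicate 1 or DiNP 100 replicate 2 at 3 months. It was 2 without DEHP 20 replicate 1, control replicate 3, DEHP 200 replicate 2 or DiNP 100 replicate 3 at 0 months, or DEHP 20 replicate 1 at 3 months. The share of all genes passing was not recorded for any of these alternatives, so their counts have no background beside them.

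The 7 gene and comparison pairs without overlap became 7 to 17 when 1 library was left out, with 17 without control replicate 1 and 11 without control replicate 3 at 3 months, and 13 without control replicate 3 at 0 months. A group with 1 library fewer separates more easily for any gene, and a control library enters all comparisons of its time point. The share over all genes was not computed for these smaller groups, so the rise says nothing particular about the 10 genes. The 23 correlations became 6 within 3 months alone and 0 within 0 months alone, where 15 libraries enter. The mean difference of the Angpt2 to Angpt1 ratio was -0.33 to -0.21 when 1 library was left out. Over all alternatives 207 of 2550 fold changes of the 10 genes changed sign. When 1 library was left out, Vegfa with DEHP 20 against control at 0 months ran from -0.39 to 0.19, and Kdr with DEHP 20 at 3 months from -0.08 to 0.41. Scaling moved the median of all genes by at most 0.03 log2 and turned 9 of these fold changes, each within 0.04 of 0 in both versions. The cause of these differences was not tested. With the replicate number as a block, Angpt2 over time had an adjusted p of 0.0171 and 1 gene passed, and the block changed no other call. Deviations of same-numbered libraries from their group means correlated with those of controls at -0.42 to 0.36, with all 3 pairs over 0.1 for DiNP 100 at 0 months (0.26, 0.11 and 0.15) and no other group. The block was fitted over all groups of a time point at once, and no comparison was fitted with such pairs alone. For DiNP 100 at 0 months 0 genes passed with and without the block. The labels do not say that same-numbered libraries are pairs. Pgf, at 1.03 to 2.56 CPM, had the lowest CPM of the 10 genes, and Vegfa had the largest residual SD (0.53).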

Other observations

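Oocyte genes fell in 10 of 10 cases between 0 and 3 months (median -0.74 log2), and theca and interstitial genes in 4 of 6 (median -0.36). Over all genes 10.6% rose and 9.63% fell in limma in the same comparison. In the surface epithelium and mesothelium list 1 of 9 genes rose, Krt8, while 0 passed of 5 adipocyte genes (median -0.70), 3 oviduct epithelium genes (median 0.97) and 4 erythrocyte genes (median 0.20). The oviduct list mean differed between times mainly in DEHP ovaries, from 0.11 at 0 to 3.00 at 3 months (DEHP 20) and from 1.23 to 2.41 (DEHP 200). It was 0.59 and 0.49 in controls, 0.58 and 0.42 with DiNP 20, and 0.30 and 0.34 with DiNP 100. Over the 8 comparisons of treated with control ovaries the smallest p in the adipocyte, oviduct epithelium and erythrocyte lists belonged to Cfd, Ovgp1 and Hba-a1. In limma these differed by -1.63 ± 1.43 (DiNP 100, 3 months), 3.36 ± 1.12 (DEHP 20, 3 months) and 1.56 ± 0.68 (DEHP 200, 3 months), with adjusted p = 0.65, 1 and 1.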
